A study of Homo sapiens with 36 samples.

Results

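The carboplatin-treated arm of a line by medium experiment in A2780, an established line from human ovarian cancer, was examined for how adaptation to serine/glycine deprivation had changed the transcriptional response to that deprivation. Members were the carboplatin-treated libraries of platinum-resistant cells (cis) and of cells that grew out of them under deprivation (cis SSP). They are 12 of the 36 RNA-seq libraries in the series. The arm was chosen with the data known: untreated libraries 25 and 32 stood apart in their trend over transcript length. The cells were grown in complete medium (cis carbo and SSP carbo) or in medium without serine and glycine (cis -SG carbo and SSP -SG carbo), with 3 libraries in each of the 4 conditions. All 4 conditions shared the platinum-resistant background, the drug, a homemade RPMI medium and dialyzed serum. Since all 12 libraries had the drug, a difference between the lines in sensitivity to platinum and adaptation to the medium cannot be told apart here. The cis SSP cells are 1 derived population, and in its legends the study describes each trio of libraries as technical replicates. Independent cultures and independent adaptations are therefore not covered by the spread between them. The labels give the carboplatin dose as 6 M with the prefix of the unit missing, and the sequenced time point is covered only by a general statement that experiments were read at day 5.

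Serine is made from the glycolytic intermediate 3-phosphoglycerate by PHGDH, PSAT1 and PSPH, and its conversion to glycine by the SHMT enzymes feeds one-carbon units into nucleotide synthesis. When amino acids run short, uncharged tRNAs activate the kinase GCN2 (EIF2AK4), general translation slows, and the transcription factor ATF4 raises genes of amino acid synthesis, uptake and tRNA charging. The same ATF4 pathway includes a stress branch with DDIT3 (CHOP), ATF3 and TRIB3. Cells that cannot make enough serine slow nucleotide synthesis and stop dividing.

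Each condition was read as counts per gene, shown here as CPM, counts scaled to a common library total by TMM over the 36 libraries. The response of a line is the log2 ratio of its level without serine and glycine to that in complete medium, and the difference of the responses is the SSP response minus the cis response. A positive difference therefore means that a gene fell less or rose more in SSP cells. A gene is called when its p-value from edgeR's quasi-likelihood test, adjusted by Benjamini-Hochberg over all genes tested, was under 0.05. Total counts on genes ran from 13074937 to 19592665 in the 12 libraries. Libraries 23 and 24, both of cis -SG carbo, stood apart, with 17.9% and 14.9% of counts on no annotated feature against 5.55% to 8.66% in the other 10. Levels in cis -SG carbo, relative to the mean of all cis and cis SSP libraries with and without the drug, also rose with transcript length. The slopes of these relative levels were 0.10 to 0.15 on the log2 scale per doubling of length. They were 0.016 to 0.036 in cis carbo and -0.039 to -0.023 in the SSP libraries. The medium and these library properties move together in cis cells, and their part in the results was examined only through fits without libraries 23 and 24, with the length trend removed and with the share of counts on no feature as a covariate. Markers of Müllerian ovarian tissue were largely absent from these cells: PAX8 stayed at or under 0.287 CPM and MUC16 at or under 0.177 CPM in the 12 libraries, while KRT18 was at 13.7 to 42.2 CPM. Of the 5 tested markers of that list 4 were called negative, EPCAM, WT1, KRT8 and KRT18, against 25.9% of all genes tested. Without libraries 23 and 24 the count was 3. EPCAM and WT1 were near the floor, with at most 18 and 14 counts in any of these libraries. Summed markers of fibroblasts and other cells were at 3.33 to 4.54 CPM in cis carbo, 2.62 to 3.42 in cis -SG carbo, 39.2 to 40.4 in SSP carbo and 39.0 to 42.8 in SSP -SG carbo, with 1 of 4 tested called (DCN, 1.73), and CD3E and HBB were at 0.

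Deprivation altered the cis cells broadly and the SSP cells little. For cis cells it was a withdrawal, which stopped their growth in the study when given without the drug. Combined with carboplatin, as in these libraries, the study reports that it killed resistant cells. The share of dying cells in the sequenced cultures is not known. The cis SSP cells had been established without serine and glycine, so the contrast is not the same exposure in both lines. Of 14767 genes tested, 10550 (71.4%) were called in the cis response, 5175 up (35%) and 5375 down (36.4%), and 956 (6.47%) in the SSP response, 457 up (3.09%) and 499 down (3.38%). At 2-fold or more the counts were 2488 (16.8%) and 10 (0.0677%). Over the 11253 genes with a mean of at least 50 counts, the median absolute response was 0.35 in cis and 0.072 in SSP cells, on the log2 scale. The difference of the responses was called for 8313 genes (56.3%), of which 4487 (30.4% of genes tested) were positive and 3826 (25.9%) negative. With a size of 2-fold or more, 532 genes (3.6%) were positive and 1411 (9.56%) negative. Counts of called list members below are read beside these shares. Without TMM scaling the median difference of all genes moved from -0.0017 to -0.12, and the share of positive calls moved from 54.0% to 41.3% of 8314 calls, so directions of small differences are relative to that choice. Of the 8313 genes, 6903 (83.0%) were called in the same direction without libraries 23 and 24, and 0 were called in the opposite direction there by edgeR, which called 7435 of 15333 genes in that fit. With the trend over transcript length removed, 8123 of 14419 genes were called, and with the share of counts on no feature as a covariate 7309.

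The responses of the 2 lines, which share no library, had some genes in common. Both came from the same fit and used the same estimate of spread for each gene. Genes with a small spread were thus favoured in both, and all genes tested are not a matched background for the overlap. A share moving the same way over all genes was not taken. Of the 956 genes called in SSP cells, 853 (89.2% of them) were also called in cis cells, against 71.4% of all genes, and 714 (74.7%) moved the same way in both. The slope of the SSP response on the cis response was 0.0656 across the 11253 genes, with Pearson's r of 0.314, a description over genes that share libraries. The plot of both responses shows the cis response spread along the horizontal axis while the SSP response stayed near 0.

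**Figure D1:**
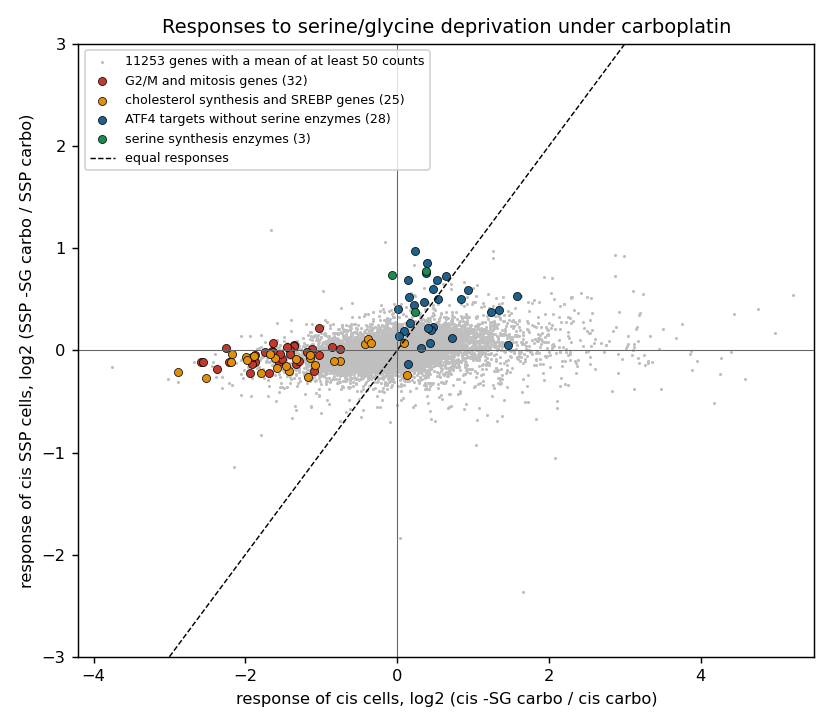
Each point is a gene, with the log2 response of cis cells on the horizontal axis and that of cis SSP cells on the vertical axis, both with carboplatin, for the 11253 genes with a mean of at least 50 counts. Most G2/M and cholesterol genes lie far to the left at an SSP response near 0 (medians -0.04 and -0.10), and most ATF4 targets lie above 0 on both axes.

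Genes of mitosis fell together in cis cells and stayed near their level in SSP cells. All 32 listed G2/M genes were called positive, against 30.4% of all genes tested, with a median difference of 1.47, a median cis response of -1.55 and a median SSP response of -0.04. The lowest difference was that of CENPF, 0.77, and 28 of the 32 reached 2-fold. KIF20A (ENSG00000112984, chromosome 5 from 137514408 to 137523412 in GRCh37), a kinesin needed for cytokinesis, was at 117, 113 and 116 CPM in cis carbo, 19.8, 17.8 and 19.3 CPM in cis -SG carbo, 117, 114 and 112 CPM in SSP carbo and 106, 109 and 103 CPM in SSP -SG carbo. Only the 3 cis -SG carbo libraries were low, and they did not overlap with any other condition. Its difference was 2.47 (standard error 0.058, adjusted p = 2.13e-20). Cyclin B1, CCNB1 (ENSG00000134057, chromosome 5 from 68462962 to 68474072), which activates CDK1 at mitotic entry, was at 232, 221 and 225 CPM in cis carbo, 76.2, 74 and 77 CPM in cis -SG carbo, 225, 244 and 233 CPM in SSP carbo and 208, 214 and 224 CPM in SSP -SG carbo. Its levels in cis -SG carbo were again the low ones, with a difference of 1.44 (standard error 0.05, adjusted p = 2.17e-17). DLGAP5, a spindle protein, differed by 2.44 (standard error 0.058, adjusted p = 2.64e-20), PLK1, the polo-like mitotic kinase, by 2.19 (standard error 0.06, adjusted p = 3.90e-19), and AURKB, a kinase of the chromosomal passenger complex, by 2.28 (standard error 0.076, adjusted p = 1.17e-17). In SSP cells 5 of the 32 genes fell and 1 rose, each by less than 0.25 on the log2 scale, PLK1 by -0.18 (adjusted p = 0.0039) and NUSAP1 upwards by 0.22. In bulk libraries a smaller share of dividing cells and less RNA in each cell cannot be told apart.

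Genes of DNA replication followed with smaller sizes. Of 35 tested, 34 were called positive and MCM5 was not called, with a median difference of 0.79. MCM5 was called negative without libraries 23 and 24 and without TMM scaling. The sliding clamp PCNA differed by 0.85 and the replication licensing factor CDC6 by 1.16. The 4 largest were GINS1, 1.42, and GINS4, 1.28, subunits of the replicative helicase, and RRM1 and RRM2, the subunits of ribonucleotide reductase, which makes deoxynucleotides. RRM1 was at 235, 229 and 232 CPM in cis carbo, 90.1, 89.7 and 89 CPM in cis -SG carbo, 219.5, 228 and 225 CPM in SSP carbo and 221, 219 and 222 CPM in SSP -SG carbo. RRM2 was at 303, 295 and 293 CPM in cis carbo, 120.1, 117 and 119 CPM in cis -SG carbo, 579, 592 and 584 CPM in SSP carbo and 582, 580.3 and 606 CPM in SSP -SG carbo. The low values of both genes were those of cis -SG carbo, with differences of 1.33 (standard error 0.04, adjusted p = 2.26e-18) for RRM1 and 1.31 (standard error 0.038, adjusted p = 1.02e-18) for RRM2. The level of RRM2 was also higher in all 6 SSP libraries than in any cis library. Of 27 genes of purine and pyrimidine synthesis, 19 were positive and 1 negative, ADSS2 at -0.32. Among 25 genes for the repair of DNA crosslinks, the lesion that platinum makes, 13 were positive and 3 negative, and the 64.0% called stand beside 56.3% of all genes. FANCD2, at the centre of the Fanconi pathway, differed by 1.11 and FANCM by 1.34, while ERCC1, a subunit of the nuclease that cuts beside crosslinks, differed by -0.46. PARP1, a sensor of DNA breaks, differed by 0.77 (standard error 0.041, adjusted p = 6.38e-14), with a fall in cis cells of 0.79 on the log2 scale and an SSP response of -0.02.

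Promoter sequences are shown for CDC20, the activator of the anaphase-promoting complex, for TOP2A, a topoisomerase of mitotic chromosomes, and for HSD17B7, an enzyme of cholesterol synthesis described below, because genes of these lists moved together. Their windows overlap no annotated exon. The differences of CDC20 and TOP2A were 1.47 and 1.14. Each window holds the 250 bases before the RefSeq start, from a RefSeq table on GRCh38.p14, and was placed in GRCh37 by exact match: CDC20 at chr1:43824402-43824651, plus strand, TOP2A at chr17:38574149-38574398, minus strand, and HSD17B7 at chr1:162760242-162760491, plus strand. Capitals mark CCAAT, the letters that NF-Y binds, on either strand (ATTGG on the other), at -100 and -55 from the start in CDC20, at 4 places from -244 to -53 in TOP2A and at -52 in HSD17B7.
CDC20: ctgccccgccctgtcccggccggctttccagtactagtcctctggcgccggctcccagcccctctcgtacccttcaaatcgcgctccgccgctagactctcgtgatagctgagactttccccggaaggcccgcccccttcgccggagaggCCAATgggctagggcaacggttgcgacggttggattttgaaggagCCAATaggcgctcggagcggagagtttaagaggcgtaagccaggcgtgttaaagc
TOP2A: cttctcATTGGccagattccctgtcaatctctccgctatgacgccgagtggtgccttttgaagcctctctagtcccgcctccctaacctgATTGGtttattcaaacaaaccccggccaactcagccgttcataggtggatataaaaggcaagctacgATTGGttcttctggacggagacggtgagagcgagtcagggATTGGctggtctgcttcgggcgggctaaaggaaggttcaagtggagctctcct
HSD17B7: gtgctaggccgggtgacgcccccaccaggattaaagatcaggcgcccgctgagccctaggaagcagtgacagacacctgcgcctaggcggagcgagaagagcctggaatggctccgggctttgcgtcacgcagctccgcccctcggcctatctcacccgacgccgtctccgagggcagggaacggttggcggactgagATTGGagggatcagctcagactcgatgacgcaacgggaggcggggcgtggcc
CCAAT occurred in the 300-base windows (250 before and 50 after the start) of 21 of the 26 G2/M genes matched in that table (80.8%), 15 of 19 cholesterol genes (78.9%), 18 of 32 replication genes (56.2%) and 20 of 60 ribosomal protein genes (33.3%), against 35.7% of 27305 promoters. TTTGGCGC, a form of the E2F site, occurred in 7 of the 32 replication promoters (21.9%), against 0.659% of all. TCACNCCAC, a form of the SREBP site, occurred in 1 of the 19 cholesterol promoters (5.26%), against 1.15% of all. These matches describe letters in the windows and no binding was measured.

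Cholesterol synthesis was another pathway in which most genes fell in cis cells. Of 25 tested genes of the pathway and of its regulator SREBP, 23 were called positive, 1 negative and 1, SREBF1, not called, with a median difference of 1.25 against a median over all genes near 0. ACAT2 (ENSG00000120437, chromosome 6 from 160183077 to 160200144), which joins acetyl-CoA molecules, was at 60.8, 63 and 62.3 CPM in cis carbo, 7.9, 7.67 and 9.23 CPM in cis -SG carbo, 26.7, 27.2 and 27.4 CPM in SSP carbo and 23.2, 22.9 and 24.2 CPM in SSP -SG carbo. INSIG1 (ENSG00000186480, chromosome 7 from 155089486 to 155101945), which retains the SREBP complex in the endoplasmic reticulum, was at 86, 83.9 and 86.5 CPM in cis carbo, 22.5, 15.6 and 17.6 CPM in cis -SG carbo, 31.5, 34.3 and 31.8 CPM in SSP carbo and 31.5, 32.8 and 31.3 CPM in SSP -SG carbo. The cis carbo libraries were the highest and the cis -SG carbo libraries the lowest of the 12 for both genes, and the SSP levels in complete medium were already under those of cis carbo. The differences were 2.68 (standard error 0.09, adjusted p = 1.28e-17) for ACAT2 and 2.15 (standard error 0.11, adjusted p = 2.88e-11) for INSIG1. HSD17B7 differed by 2.25 (standard error 0.19, adjusted p = 3.78e-10). The exception was STARD4, a cholesterol transporter, at 282, 270.1 and 279 CPM in cis carbo, 302, 295 and 304 CPM in cis -SG carbo, 36, 35.5 and 35.7 CPM in SSP carbo and 30.3, 31.7 and 28.5 CPM in SSP -SG carbo. It rose in cis cells and fell in SSP cells, each by less than 0.25 on the log2 scale, with a difference of -0.38 (standard error 0.054, adjusted p = 1.61e-06).

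Energy metabolism shifted in the same direction with smaller sizes. Of 22 genes of glycolysis, 18 were positive and 2 negative, with a median of 0.48, and of 32 genes of the TCA cycle and glutamine use, 25 were positive and 2 negative, with a median of 0.34. LDHA, which makes lactate, was at 1340, 1264 and 1288 CPM in cis carbo, 535, 512 and 520.4 CPM in cis -SG carbo, 1429, 1486 and 1467 CPM in SSP carbo and 1400, 1426 and 1463 CPM in SSP -SG carbo, with only cis -SG carbo low and a difference of 1.26 (standard error 0.037, adjusted p = 1.32e-18). Citrate synthase, CS, differed by 0.73 and IDH2 by 1.28. The negative members were the glucose transporters SLC2A1 (-0.40) and SLC2A3 (-0.45), glutamine synthetase GLUL (-1.40) and the glutaminase GLS2 (-1.37). Of the genes of the mitochondrial genome, 6 of 13 were called, all positive, or 46.2% against 56.3% of all genes. Without libraries 23 and 24, 0 were called. Their share of counts differed between libraries of 1 condition, from 3.0% to 5.29% in cis carbo and from 6.59% to 8.41% in SSP -SG carbo, and their median difference was 0.77 with and -0.46 without carboplatin.

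The genes of serine synthesis had larger responses in SSP than in cis cells. Over all genes with a called difference, 15 moved the same way in both lines with the larger response in SSP cells, and 64 were called in SSP cells alone. PSAT1 (ENSG00000135069, chromosome 9 from 80912041 to 80945009), the aminotransferase of the pathway, was at 703, 681 and 704 CPM in cis carbo, 669, 635 and 665 CPM in cis -SG carbo, 552, 585 and 557 CPM in SSP carbo and 921, 936 and 964 CPM in SSP -SG carbo. Its level fell by 0.07 on the log2 scale in cis cells (adjusted p = 0.04) and rose by 0.74 in SSP cells, to values above those of all other libraries of this arm. The difference was 0.80 (standard error 0.039, adjusted p = 1.52e-14). Without carboplatin PSAT1 was higher still in cis SSP -SG, at 1559, 1597 and 1533 CPM. PHGDH (ENSG00000092621, chromosome 1 from 120191034 to 120286841), the first enzyme, was at 131, 125 and 131 CPM in cis carbo, 171, 162 and 165 CPM in cis -SG carbo, 184, 189 and 185 CPM in SSP carbo and 316, 319.6 and 323 CPM in SSP -SG carbo. It rose in both lines without overlap, by 0.38 in cis and 0.78 in SSP cells, with a difference of 0.40 (standard error 0.043, adjusted p = 2.38e-08). PSPH, the phosphatase that ends the pathway, responded by 0.23 in cis and 0.37 in SSP cells. Its difference of 0.14 (standard error 0.057, adjusted p = 0.041) was not called in 17 of 22 alternatives, among them the fit without libraries 23 and 24 (0.023, adjusted p = 0.78), and PSPH has a pseudogene that can share its reads.

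The one-carbon enzymes downstream were mostly positive. Of 20 tested folate and glycine genes, 13 were positive and 6 negative. SHMT2, the mitochondrial enzyme that converts serine to glycine, was at 328, 301 and 316 CPM in cis carbo, 219.8, 207 and 214 CPM in cis -SG carbo, 248, 251 and 252 CPM in SSP carbo and 286, 293 and 295 CPM in SSP -SG carbo. It fell in cis cells and rose in SSP cells, -0.54 in cis and 0.22 in SSP cells, a difference of 0.76 (standard error 0.044, adjusted p = 2.88e-13). Its cytosolic counterpart SHMT1 differed by 0.94 (standard error 0.076, adjusted p = 1.35e-10). MTHFD2, the next mitochondrial step, was not called in cis cells (0.05, adjusted p = 0.17) and rose by 0.45 in SSP cells, a difference of 0.41 (standard error 0.042, adjusted p = 8.55e-09). ALDH1L2, which consumes mitochondrial formyl-folate, went the other way. It was at 128, 128 and 122 CPM in cis carbo, 296, 299 and 296 CPM in cis -SG carbo, 72, 74.4 and 69.1 CPM in SSP carbo and 129.6, 136 and 137 CPM in SSP -SG carbo, and rose in both lines by 1.26 in cis and 0.90 in SSP cells, a difference of -0.36 (standard error 0.049, adjusted p = 8.69e-07). FTCD and DMGDH, with the lowest differences of the list, had mean counts under 10 over the 12 libraries.

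The response of ATF4 itself was not called different between the lines. Its level (ENSG00000128272, chromosome 22 from 39915700 to 39918688) was 430.2, 408 and 414 CPM in cis carbo, 505, 457 and 489 CPM in cis -SG carbo, 244, 244 and 247 CPM in SSP carbo and 282, 287 and 290.4 CPM in SSP -SG carbo, lower in SSP cells in both media. It rose in both lines, by 0.23 in cis and 0.22 in SSP cells. The difference amounted to -0.01 (standard error 0.044, adjusted p = 0.88) with a 95% interval of -0.10 to 0.08. Without libraries 23 and 24 the difference was -0.11 (adjusted p = 0.038), and without TMM scaling -0.12 (adjusted p = 0.016). The plot of levels by library sets ATF4 beside genes of both branches.

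**Figure D2:**
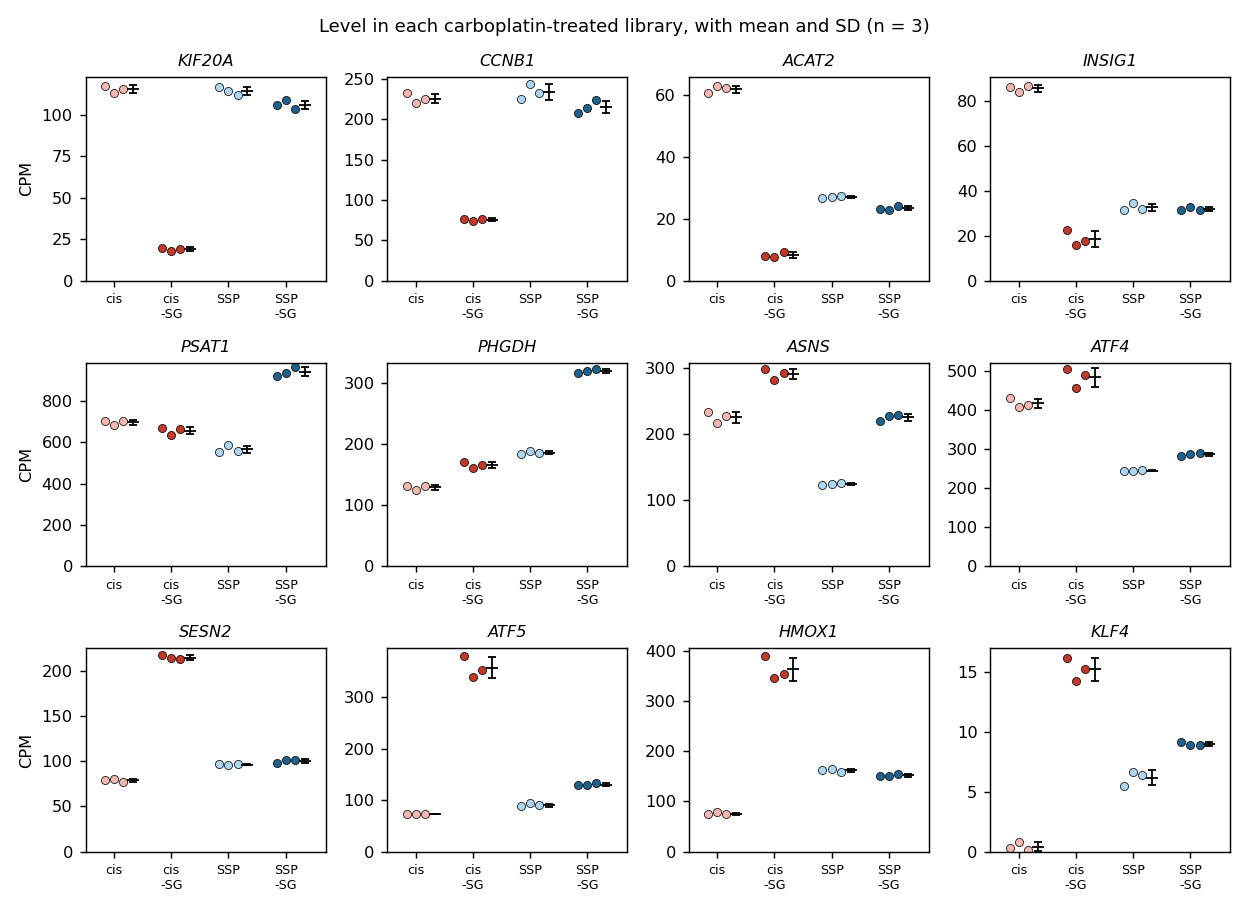
Level in CPM (linear axis from 0) of 12 genes in each of the 12 carboplatin-treated libraries, in complete medium and without serine and glycine (-SG), as 3 points per condition with their mean and SD. KIF20A, CCNB1, ACAT2 and INSIG1 were lowest in cis -SG, PSAT1 and PHGDH highest in SSP -SG, and SESN2, ATF5, HMOX1 and KLF4 highest in cis -SG.

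Most ATF4 targets rose in both lines, and their differences had both signs. Of 28 tested targets outside serine synthesis, 25 rose and 0 fell in cis cells, 23 rose and 0 fell in SSP cells, with median responses of 0.42 in each. In the difference 11 were positive, 11 negative and 6 not called, with a median of 0.02. Without libraries 23 and 24 the counts were 6 positive and 11 negative, and without TMM scaling 6 and 12 with a median of -0.09. Asparagine synthetase, ASNS (ENSG00000070669, chromosome 7 from 97480989 to 97501854), was at 232, 216 and 226 CPM in cis carbo, 298, 282 and 292 CPM in cis -SG carbo, 122, 125 and 125 CPM in SSP carbo and 219, 227 and 229 CPM in SSP -SG carbo. It rose in both lines and more in SSP cells, 0.39 in cis and 0.86 in SSP cells, a difference of 0.47 (standard error 0.044, adjusted p = 2.74e-09), while its highest levels were those of cis -SG carbo. VLDLR, a lipoprotein receptor, with a difference of 0.74, PCK2, the mitochondrial PEP carboxykinase, with 0.55, and the alanine transaminase GPT2 with 0.40 were also positive. GPT2 was not called in cis cells (0.01, adjusted p = 0.88) and rose by 0.40 in SSP cells. On the negative side, SESN2 (ENSG00000130766, chromosome 1 from 28586029 to 28609002), a leucine sensor that restrains mTORC1, was at 79.4, 80.6 and 77 CPM in cis carbo, 218, 213 and 212 CPM in cis -SG carbo, 96.6, 95.6 and 96.6 CPM in SSP carbo and 97.9, 101 and 102 CPM in SSP -SG carbo. It rose in cis cells and was not called in SSP cells (0.06, adjusted p = 0.39), with a difference of -1.41 (standard error 0.046, adjusted p = 7.20e-18). DDIT4, another inhibitor of mTORC1, differed by -1.05 (standard error 0.089, adjusted p = 7.74e-09), with responses of 1.58 in cis and 0.53 in SSP cells. CHAC1, which degrades glutathione, responded by 0.94 in cis and 0.59 in SSP cells, a difference of -0.35 (standard error 0.089, adjusted p = 0.0018). TGATGNAA, the composite letters of ATF4 with C/EBP partners, occurred in 7 of 25 target promoters (28%), against 3.67% of all. In the window of HERPUD1, an endoplasmic reticulum protein with a difference of -0.24, it lies at -176, in capitals on the other strand, at chr16:56965804-56966053, plus strand.
HERPUD1: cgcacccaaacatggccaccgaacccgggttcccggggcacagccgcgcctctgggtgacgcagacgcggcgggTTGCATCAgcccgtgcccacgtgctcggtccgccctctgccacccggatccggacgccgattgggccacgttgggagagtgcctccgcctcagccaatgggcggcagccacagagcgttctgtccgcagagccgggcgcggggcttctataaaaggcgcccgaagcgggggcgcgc

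The regulators around ATF4 responded more in cis cells. Of 16 tested, 9 were negative and 4 positive, with a median difference of -0.41, a median cis response of 0.67 and a median SSP response of 0.19. ATF5, a relative of ATF4, was at 72.4, 74 and 72.9 CPM in cis carbo, 379.7, 339 and 354 CPM in cis -SG carbo, 87.9, 93.7 and 90.1 CPM in SSP carbo and 129, 129 and 133 CPM in SSP -SG carbo, and responded by 2.31 in cis and 0.53 in SSP cells, a difference of -1.78 (standard error 0.055, adjusted p = 2.46e-18). ATF3 was at 14.4, 13.1 and 15.3 CPM in cis carbo, 73.5, 72 and 75 CPM in cis -SG carbo, 7.48, 6.8 and 6.65 CPM in SSP carbo and 9.33, 8.97 and 8.85 CPM in SSP -SG carbo. DDIT3 was at 34, 33.7 and 33.2 CPM in cis carbo, 63.2, 63 and 63 CPM in cis -SG carbo, 8.26, 7.73 and 9.81 CPM in SSP carbo and 9.39, 9.6 and 8.72 CPM in SSP -SG carbo, so that its levels in SSP cells were low in both media and overlapped between them. ATF3 differed by -2.01 (standard error 0.11, adjusted p = 1.27e-13) and DDIT3 by -0.82 (standard error 0.11, adjusted p = 3.69e-07), with an SSP response of DDIT3 of 0.10 (adjusted p = 0.63). TRIB3, a pseudokinase that restrains ATF4, responded by 1.04 in cis and 0.53 in SSP cells, a difference of -0.51 (standard error 0.059, adjusted p = 1.41e-07), and NUPR1 by 2.87 in cis and 0.93 in SSP cells, a difference of -1.93 (standard error 0.11, adjusted p = 1.16e-13). PPP1R15A (GADD34), the phosphatase subunit that restores translation, differed by -1.37. Of the 4 positive members, 3 were the kinases EIF2AK1, EIF2AK2 and EIF2AK3, which fell in cis cells, and the other was JDP2. GCN2 itself, EIF2AK4, was not called (0.10).

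Transporters and tRNA synthetases showed both directions. Of 11 tested carriers of serine and neutral amino acids, 6 were negative and 1 positive. SLC7A11, the cystine carrier, was at 76.9, 80.8 and 76.4 CPM in cis carbo, 172, 192 and 189 CPM in cis -SG carbo, 26.6, 28.6 and 28.8 CPM in SSP carbo and 55.6, 54.9 and 54.2 CPM in SSP -SG carbo, and responded by 1.26 in cis and 0.97 in SSP cells, a difference of -0.29 (standard error 0.069, adjusted p = 9.63e-04). SLC1A4, a serine carrier, differed by -0.21 (standard error 0.062, adjusted p = 0.0057). Without carboplatin its difference had the other sign, 0.48 with all libraries (adjusted p = 0.059) and 0.46 without libraries 25 and 32 (adjusted p = 6.61e-10). The positive one was SLC1A5, a glutamine and serine carrier, which was not called in cis cells (-0.08, adjusted p = 0.077) and rose by 0.40 in SSP cells, a difference of 0.47 (standard error 0.053, adjusted p = 2.40e-07). Of 20 tRNA synthetases 10 were positive and 7 negative, 7 and 7 without libraries 23 and 24 and 7 and 8 without TMM scaling. The seryl enzyme SARS1 (-0.45) was the most negative and FARSA (0.69) the most positive.

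Lists of other stress programs held members of both directions, and their counts stand beside 30.4% positive and 25.9% negative of all genes tested. HMOX1, heme oxygenase, was at 74.2, 78.1 and 75.2 CPM in cis carbo, 389, 345 and 353 CPM in cis -SG carbo, 163, 165 and 159 CPM in SSP carbo and 149.9, 150.3 and 155 CPM in SSP -SG carbo, with a difference of -2.37 (standard error 0.055, adjusted p = 1.78e-20), and NQO1, another target of NRF2, differed by -1.03. Of 20 genes of transsulfuration, glutathione and NRF2, 10 were negative and 6 positive (80.0% called), 11 and 4 without libraries 23 and 24 and 12 and 3 without TMM scaling. Among 22 genes of the endoplasmic reticulum, 12 were positive and 8 negative: chaperones such as SDF2L1 (1.94), MANF (1.77) and PDIA4 (1.29) fell in cis cells, and the sensors ERN1 (-1.16) and ATF6 (-1.11) rose there. Of 28 tested p53 targets, 13 were negative and 8 positive, and 16 and 5 both without libraries 23 and 24 and without TMM scaling. The difference of CDKN1A (p21) was -0.09 (standard error 0.049, adjusted p = 0.13) with a 95% interval of -0.19 to 0.01, and it was called, as negative, in 7 of 22 alternatives. GDF15 differed by -0.60 (standard error 0.18, adjusted p = 0.018), and was not called in 5 of 22, MDM2 by -0.46 (standard error 0.042, adjusted p = 1.27e-09), and DDB2, a DNA damage sensor, by 1.05. Of the BCL2 family, 7 of 15 were negative, among them the death activators HRK (-2.53), BCL2L11 (-1.14) and BBC3 (-1.01), and 3 were positive, BAX (0.59), BAD (0.92) and BID (0.45). Of 12 targets of NF-kB, 8 were negative, such as TRAF1 (-2.67), and 1, NFKB1, was positive. Of 74 ribosomal protein genes, 49 were negative and 10 positive with a median of -0.18, 57 and 5 without TMM scaling, and these genes have many processed copies that can share their reads. Of 21 genes of NAD synthesis and PARP, 9 were negative and 7 positive. NAMPT, an enzyme of NAD synthesis, was not called (0.04, 95% interval -0.13 to 0.20), while NMNAT2, another, differed by -3.44 (standard error 0.32, adjusted p = 1.55e-09).

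The remaining lists are read against 56.3% of all genes called, 30.4% positive and 25.9% negative. Of 18 genes of adhesion and epithelial-mesenchymal state, 10 were negative, 8 of them by 2-fold or more, and 2 positive, with a median of -0.67. Fibronectin, FN1, differed by -1.57, while TGFB1 was positive (0.59) and VIM was not called (-0.06). EPCAM, an epithelial adhesion protein, differed by -2.99 but was near the floor, at most 1.03 CPM and 18 counts in a library. Of 22 immediate-early genes 11 were negative, among them JUN (-1.64), and 4 positive, among them FOS (0.73) and EGR1 (0.58), and without libraries 23 and 24 the counts were 12 and 2. Of 28 genes of autophagy and lysosomes 12 were negative and 5 positive (60.7% called), 15 and 2 without libraries 23 and 24 and 20 and 2 without TMM scaling, with SQSTM1 (p62) at -0.90 and TFEB, a lysosomal transcription factor, at 0.96. Of 17 interferon-stimulated genes 47.1% were called, 7 negative and 1 positive. Of 17 CDK inhibitors and G1 regulators 58.8% were called, 8 positive and 2 negative, the inhibitors CDKN2B (-2.68) and CDKN2A (-1.55), and the counts were 6 and 6 both without libraries 23 and 24 and without TMM scaling. Of 22 genes of sphingolipid and phosphatidylserine synthesis 9 were positive and 5 negative, 3 and 6 without libraries 23 and 24. Of 2 metallothionein genes tested, which bind metals, MT2A was called (-1.54).

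**Figure D3:**
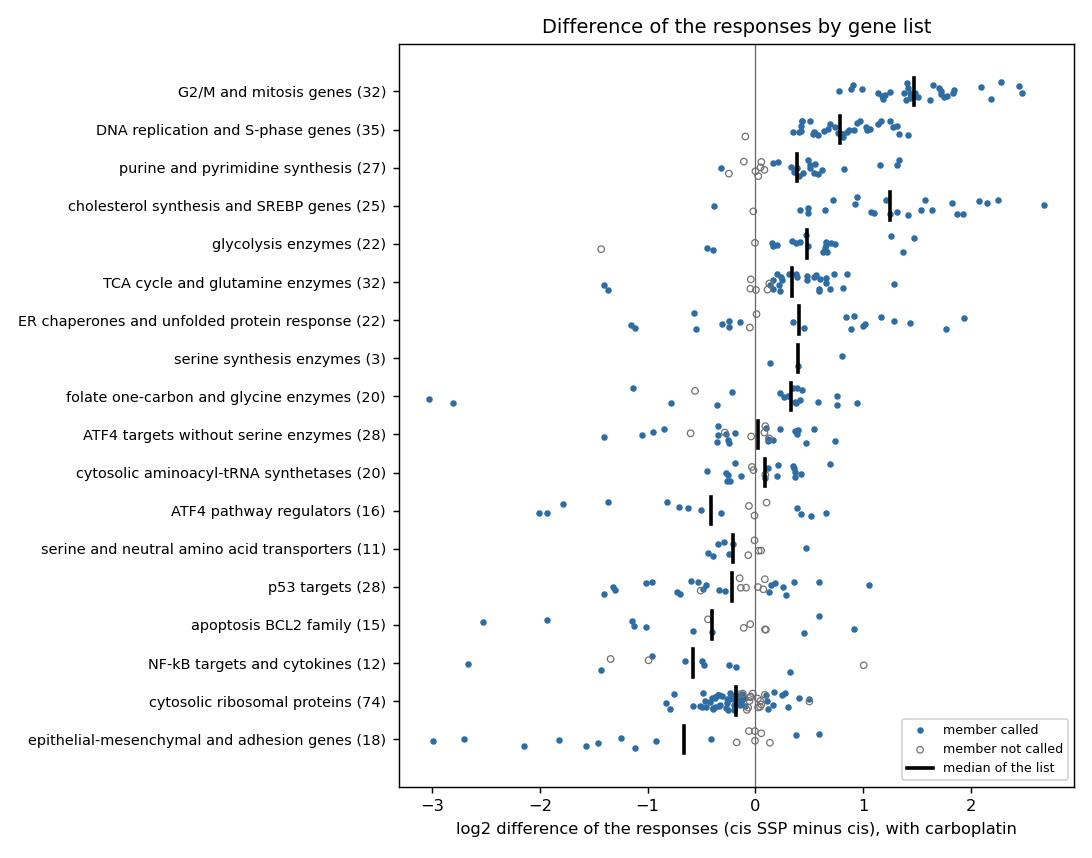
Each point is a tested member of a list (number in parentheses), placed by its log2 difference of the responses on the horizontal axis, filled where called, with a bar at the median of the list. All 32 G2/M genes lie right of 0, and the ATF4 targets lie on both sides with a median of 0.02.

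The largest differences are given among genes with a mean of at least 50 counts that were called again without libraries 23 and 24, and on the negative side these were at low levels in cis carbo. KLF4 (ENSG00000136826, chromosome 9 from 110247133 to 110252763), a transcription factor of differentiation, was at 0.287, 0.833 and 0.186 CPM in cis carbo, 16.2, 14.3 and 15.2 CPM in cis -SG carbo, 5.51, 6.64 and 6.43 CPM in SSP carbo and 9.19, 8.9 and 8.91 CPM in SSP -SG carbo. EPAS1 (HIF-2α) was at 0.860, 0.908 and 0.310 CPM in cis carbo, 13.2, 12.9 and 13.3 CPM in cis -SG carbo, 1.82, 1.37 and 1.21 CPM in SSP carbo and 1.81, 1.33 and 1.07 CPM in SSP -SG carbo. IGF1R, the receptor of insulin-like growth factor, was at 1.72, 1.51 and 1.99 CPM in cis carbo, 26.3, 28 and 26.2 CPM in cis -SG carbo, 12, 12.7 and 12.5 CPM in SSP carbo and 11.8, 12.1 and 10.8 CPM in SSP -SG carbo. Each rose in the 3 cis -SG carbo libraries above the other 9 libraries, with differences of -4.68, -4.35 and -4.05. The kinase gene ALPK1 (-4.48) and SLFN5 (-4.36) had the same pattern, and IGFN1 varied from 9.24 to 28.2 CPM among the cis -SG carbo libraries, with a difference of -4.08 (standard error 1.3, adjusted p = 0.028). ATRNL1, OR5E1P, CDX2, KCNJ5 and CSRNP3 had at most 3 counts in each library of 1 of the conditions, and so did P2RX5 among the positive differences, so their fitted values depend on the prior count and no fold is given for them. The largest positive difference among these genes was that of PLA2G3, a secreted phospholipase, at 42.7, 41.3 and 42.3 CPM in cis carbo, 3.67, 2.83 and 2.67 CPM in cis -SG carbo, 18.4, 18.6 and 19.4 CPM in SSP carbo and 17.4, 16.2 and 16.6 CPM in SSP -SG carbo, a difference of 3.59 (standard error 0.12, adjusted p = 9.75e-18). STAC2 (2.74), MEOX1 (2.58), CDCA3 (2.56), S1PR5 (2.36), ARHGEF39 (2.30) and RAB3D (2.29) followed, each low in cis -SG carbo.

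Among the strong negatives were genes that the adapted line expresses and the cis line hardly does, a set singled out after its values were seen. There were 15 genes with a mean under 0.5 CPM in cis carbo and of at least 10 CPM in SSP carbo. Their low values in cis carbo are thus given by the choice. Of the 15, 12 were higher in every cis -SG library than in every cis library without carboplatin, against 34.1% of all genes tested. The untreated libraries were not used to choose them. The 15 were near the floor there too, with cis means from 0.077 CPM (KCNJ5) to 0.56 CPM (COL4A1). A rise was thus the change most open to them, and all genes tested are not a matched background for sets chosen near the floor. With carboplatin 12 were higher in every cis -SG carbo library than in every cis carbo library, against 33.9% of all genes, a count that the choice on cis carbo favours. PSD3, an exchange factor for ARF6, was at 0.287, 0.378 and 0.373 CPM in cis carbo, 5.12, 5.14 and 4.78 CPM in cis -SG carbo, 107, 113 and 112 CPM in SSP carbo and 101, 111 and 113 CPM in SSP -SG carbo. The collagen gene COL4A1 was at 0.229, 0.0757 and 0.497 CPM in cis carbo, at 3.12, 2.36 and 2.84 CPM in cis -SG carbo and at a mean of 78.3 CPM in SSP carbo. The median level of the 15, as a percentage of the mean in SSP carbo, was 0.573%, 0.678% and 0.813% in the cis carbo libraries and 4.28%, 3.84% and 3.67% in those of cis -SG carbo. Without carboplatin it was 0.815%, 1.20% and 1.39% in cis and 4.92%, 4.96% and 5.00% in cis -SG. Of the 17 genes chosen the other way, high in cis carbo and under 0.5 CPM in SSP carbo, 1 was higher in every SSP -SG carbo library than in every SSP carbo library, against 11.6% of all genes. CDH2, N-cadherin, which was above 0.5 CPM in cis carbo and so outside the 15, was at 10.2, 9.69 and 10.6 CPM in cis carbo, 73.3, 66.1 and 68.9 CPM in cis -SG carbo, 1081, 1099 and 1100 CPM in SSP carbo and 1138, 1154 and 1194 CPM in SSP -SG carbo. In bulk libraries a few cells with a high level and many cells with a low one cannot be told apart.

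**Figure D4:**
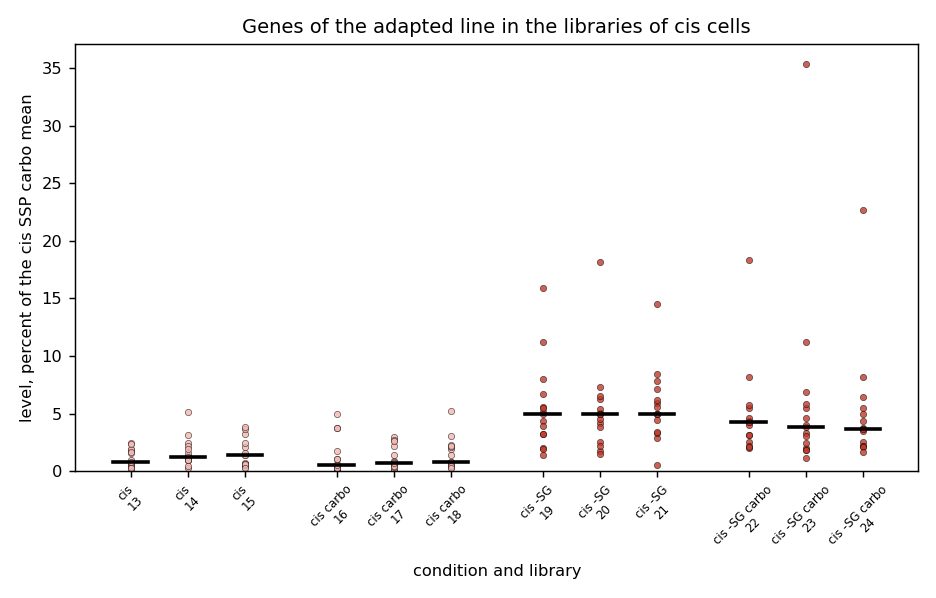
Each point is 1 of the 15 genes high in SSP carbo and near absent in cis carbo, in each library of cis cells (horizontal axis, condition and library number), as a percentage of its mean in SSP carbo (vertical axis), with a bar at the median. The medians lie between 0.573% and 1.39% in complete medium and between 3.67% and 5.00% without serine and glycine.

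The genes with the largest responses in SSP cells are given next. Among genes with a symbol and a mean of at least 50 counts, chosen after their values were seen, the largest called rises in SSP cells were SLC7A11 and VLDLR at 0.97, NUPR1 at 0.93, ALDH1L2 at 0.90 and ASNS at 0.86. VLDLR and ASNS are on the list of ATF4 targets and NUPR1 on that of its regulators. The largest called fall was that of TAGLN, transgelin, an actin-binding protein, at 12.2, 10.4 and 11.6 CPM in cis carbo, 10.4, 13.2 and 11.2 CPM in cis -SG carbo, 63.8, 64.3 and 63.3 CPM in SSP carbo and 17.1, 17.9 and 18.4 CPM in SSP -SG carbo. It was not called in cis cells (0.03, adjusted p = 0.74) and fell by 1.84 in SSP cells, a difference of -1.87 (standard error 0.11, adjusted p = 4.07e-13). ADM2 (0.65 in cis and 0.73 in SSP cells) and ALDH2 (0.61 in cis and 0.65 in SSP cells) rose in both lines with no called difference, and 169 genes were called in the same direction in both lines with no called difference. Opposite directions were called for 139 genes. Of these, 24 with a mean of at least 50 counts moved by at least 0.3 in both lines, and 22 of the 24 rose in cis and fell in SSP cells. They included TNC, tenascin, at 2.87, 2.95 and 2.3 CPM in cis carbo, 23.1, 23.4 and 22.9 CPM in cis -SG carbo, 48.7, 49.8 and 50.7 CPM in SSP carbo and 34.1, 38.3 and 42 CPM in SSP -SG carbo, the protease PLAU (1.04 in cis and -0.93 in SSP cells) and CCN1 (1.19 in cis and -0.64 in SSP cells). The named ones encode secreted or matrix proteins and were picked from the 24 after their values were seen.

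The same difference was measured without carboplatin in 12 other libraries. There, edgeR called 2533 of 14806 genes (17.1%), and 8341 of 15057 once library 25 of cis SSP and library 32 of cis SSP -SG were left out. Relative to the other libraries, levels in libraries 25 and 32 fell with transcript length. Of the 1872 genes with a called difference of 2-fold or more under carboplatin that were tested there, 1828 (97.6%) had the same sign, against 81.2% of all 14465 genes, and 1047 (55.9%) were also called in that direction. Without libraries 25 and 32 the called ones were 1444 of 1902 (75.9%), and 3 were called in the opposite direction. Across 11253 genes Pearson's r between both differences was 0.85 without libraries 25 and 32, a description over genes. The G2/M list had a median of 1.47 with and 1.25 without the drug, and the cholesterol list 1.25 and 1.12. Not every list kept its sign. The carriers of serine and neutral amino acids had medians of -0.21 with and 0.24 without the drug. With it 1 was called positive and 6 negative. Without it the counts were 1 and 0, and 7 and 1 once libraries 25 and 32 were left out. The tRNA synthetases had 10 positive and 7 negative with the drug, and 13 and 2 without it and without those libraries.

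The difference itself changed with the drug for 8 of 15376 genes, 0.052% (edgeR, 1001 at an unadjusted p under 0.05), for 105 by DESeq2, for 1867 without libraries 25 and 32 and for 2 without libraries 23 and 24. Of the 8, 6 were lower with carboplatin: INHBE, STC2, VLDLR and GPT2, which are on the list of ATF4 targets, and HAPSTR1 and ASPH, together 0.039% of genes tested. INHBE, an inhibin subunit, had a difference of -0.04 with carboplatin and 1.49 without, and a change of -1.58 in the fit over all 24 libraries (adjusted p = 2.95e-04). STC2, a secreted glycoprotein, had 0.16 with and 0.80 without, a change of -0.69 (adjusted p = 0.0078). FOSB and ZNF331 were the 2 (0.013% of genes) that were higher with carboplatin, by 1.03 and 1.11 (adjusted p = 0.025 for both). Values side by side for other genes, whose change was not called with all libraries, were 0.80 and 1.21 for PSAT1, -0.29 and 0.91 for SLC7A11, and -0.09 and -1.05 for CDKN1A (adjusted p = 0.062 for its change). Without libraries 25 and 32 the change was called for all 3, at -0.43 for PSAT1 (adjusted p = 8.89e-07), -1.24 for SLC7A11 (adjusted p = 1.18e-11) and 0.99 for CDKN1A (adjusted p = 5.42e-12). For wt cells, the sensitive parent, 104 of 14454 genes (0.72%) were called in the same response with carboplatin, and the median response of the G2/M list was -0.12. That comparison shares no library with those above, and a difference between wt and the other lines was not tested. It came from a fit of the wt libraries alone, with a larger estimate of spread. Its common dispersion was 0.0051, against 0.0015 in the fit of cis and cis SSP cells with carboplatin. The wt count is therefore not comparable with the 956 genes of the SSP response. The median absolute response over all genes tested was 0.10 in wt and 0.089 in SSP cells.

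**Figure D5:**
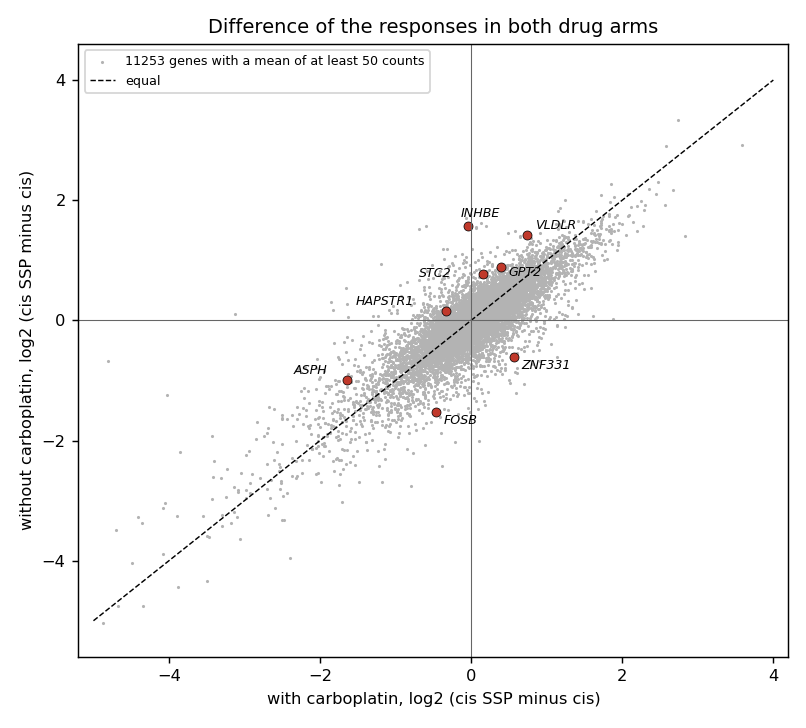
Each point is a gene, with its log2 difference of the responses (cis SSP minus cis) with carboplatin on the horizontal axis and without it on the vertical axis, the latter from a fit without libraries 25 and 32. The 11253 genes follow the diagonal with r of 0.85, and the 8 genes whose difference changed with the drug are named.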

How the data were processed

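RNA was read on a HiSeq2500 from libraries of a strand-keeping total RNA kit. Per the methods of the study and the submitters' notes, the authors aligned reads with STAR to GRCh37.p13 and deposited raw exon counts per gene from HTSeq with GENCODE v19. The strand setting is not given in the sources used here. The table held 57820 genes and 3 rows naming no gene, which were left out. Symbols and positions came from GENCODE v44 lifted to GRCh37, which matched 55538 of the genes.

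Counts were fitted with edgeR 4.0.16 (TMM, quasi-likelihood test, filterByExpr) over the 12 carboplatin-treated libraries with 1 coefficient per condition, Benjamini-Hochberg adjusted over all genes tested. DESeq2 1.42.0, other scalings, filters and covariates, and leaving out libraries were alternatives. Fits were tested on simulated data. The members and gene lists were chosen with earlier results of these data known. Genes were named as the 12 with the largest called difference in each direction (mean of at least 50 counts, called again without libraries 23 and 24), up to 4 called members per direction in each list, and a set of pathway genes. Other genes are examples from the lists or are said to be chosen after their values were seen. Since the 3 libraries of a condition may be technical replicates, p-values measure only the spread between these libraries. Values of some single genes are not reported here.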

Additional observations from a re-analysis of the deposited data

Results flagged for a closer look

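The response to serine/glycine deprivation differed between cis SSP and cis cells for 8313 genes with carboplatin, 1943 of them by 2-fold or more, by edgeR's test of the difference itself, and each gene counted there is such a difference. Without carboplatin 2533 genes differed by the same test. The difference changed with carboplatin for 8 genes. Opposite responses of at least 0.3 on the log2 scale in both lines were seen for 24 genes. Single values were not screened for a library far from its group, since conditions had 3 libraries each.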

How the results depend on the processing

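The difference of the responses was called for 8313 genes, for 5354 in 1 fit over 36 libraries and for 1943 with a minimum size of 2-fold, and for 7792 to 8906 with 1 library left out. The cis response was called for 10550 genes, 2488 at 2-fold, and 10030 to 10991 with 1 library left out. The SSP response was called for 956 genes, 570 by DESeq2, 96 in the fit over 36 libraries, 1504 with the share of reads on no feature as a covariate and 10 at 2-fold. Leaving out 1 library gave 489 (cis SSP carbo replicate 1) to 1311 (cis -SG carbo replicate 1). Without carboplatin 2533 genes became 8341 without libraries 25 and 32, 1319 at 2-fold and 1829 to 3482 with 1 library left out. The change with the drug was called for 8 genes, 105 by DESeq2, 1867 without libraries 25 and 32 and 2 without libraries 23 and 24. The cause of these shifts was not tested. The balance of positive to negative calls turned from 4487 and 3826 to 3430 and 4884 without TMM scaling and to 3698 and 4162 with no filter on low counts. It was 1015 and 1518 without carboplatin, and 768 and 1918 there without TMM scaling, and the SSP response had 457 up and 499 down, and 143 and 560 with no filter. Of 4546 values of 208 named genes under the alternatives, 4393 kept their side of the threshold, 141 lost it and 12 gained it. No paired analysis was possible because the labels give no replicate numbers.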
